A study of Mus musculus with 7 samples.

Results

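The genes described here are those of the MHC class II presentation system of the mouse: the transactivator gene Ciita, the alpha and beta chain genes H2-Aa, H2-Ab1, H2-Eb1 and H2-Eb2, the invariant chain gene Cd74, and the genes of the peptide-editing molecules DM and DO, H2-DMa, H2-DMb1, H2-Oa and H2-Ob. They are 10 of 21631 protein-coding genes. Open chromatin at them was mapped by ATAC-seq, in which the transposase Tn5 inserts sequencing adapters into accessible DNA, in intestinal stem cells sorted by a GFP reporter of Lgr5, a receptor that marks the stem cells of the crypt base. The recipients were female B6-GFP-Lgr5 mice, aged 8 to 12 weeks, that were lethally irradiated and transplanted with bone marrow 7 days before the sort. Syngeneic recipients (Syn, 3 libraries) were the controls. Allogeneic recipients (Allo, 4 libraries) were B6-GFP-Lgr5 mice given BALB/c marrow. Irradiation, transplantation, strain and reporter were thus shared by both groups, and an untransplanted group was not analysed here. Each library was made with the Omni-ATAC-seq protocol from 50000 sorted cells of an independent pool of 3 to 4 mice, so animals within a library cannot be told apart. A peak was given to a gene if its summit lay in the gene body, or if the gene was the nearest protein-coding one within 50 kb. Peaks of the 7 libraries that overlapped were joined into 103809 regions, of which 59 belonged to the 10 genes. The gene set was proposed with results of these peak lists already known, so differences between Allo and Syn at its members are described and not tested. The members were chosen by name, with the peak presence and ranks of Allo against Syn in view, and no threshold was applied.

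MHC class II molecules are pairs of an alpha and a beta chain that carry peptides to the cell surface, where CD4+ T cells inspect them. They are made all the time by dendritic cells, B cells and macrophages, and interferon-gamma can induce them in other cells, among them the epithelium of the intestine. CIITA, the protein of Ciita, does not bind DNA itself. It is recruited to class II promoters by the RFX complex and CREB, which bind the X box, and by NF-Y, which binds the Y box. The invariant chain fills the peptide groove of new class II molecules and guides them to endosomes, DM exchanges its remnant for peptides, and DO holds DM back. In mice of the B6 haplotype the E alpha chain is not made, and the RefSeq table lists its gene H2-Ea as a transcribed pseudogene.

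The promoters of class II genes carry this X and Y arrangement, and 1 of them, that of H2-Eb2, lay in a region that was open in the 4 Allo libraries alone. RefSeq promoter sequences (GRCm38.p6, the same build as mm10), running from 250 bases before to 50 after a start, were held for 8 starts of 7 members. Promoters of Ciita, H2-Ab1 and Cd74 are not shown. CCAAT, the core of the Y box (ATTGG in reverse), was found on either strand in 7 of 8 member promoters and in 37.4% of 32851 promoters. The X box core AGCAAC or its reverse GTTGCT was found in 4 of 8, against 14.8% of all promoters, and TGACGTCA, a CREB motif, was found in 1 of 8, that of H2-Aa, against 1.79%. AGCAAC followed on the same strand by ATTGG, with starts 10 to 40 bases apart, was found in 4 of 8 member promoters and in 0.524% of all, a search chosen after the sequences had been seen. The distance from start to start was 33 bases in H2-Eb2 and H2-Eb1, 31 in H2-Ob and 34 in H2-Oa. On either strand, 0 of 8 held TGCGTCA, another CREB-like motif, which 2.12% of all promoters hold. None of the 8 held the STAT motif TTCNNNGAA, against 8.30% of all, or the interferon regulatory factor motif (GAAA repeated after any 2 bases), against 3.44%. A match is a string of letters and says nothing about binding. The whole H2-Eb2 promoter is shown first, since its region separated the recipient types, and then 105 bases around the Y box of H2-Eb1, H2-Ob, H2-DMb1, H2-Oa and H2-Aa to compare their spacing. Capitals mark AGCAAC, TGACGTCA and ATTGG.
H2-Eb2, chr17:34325425-34325724, + strand: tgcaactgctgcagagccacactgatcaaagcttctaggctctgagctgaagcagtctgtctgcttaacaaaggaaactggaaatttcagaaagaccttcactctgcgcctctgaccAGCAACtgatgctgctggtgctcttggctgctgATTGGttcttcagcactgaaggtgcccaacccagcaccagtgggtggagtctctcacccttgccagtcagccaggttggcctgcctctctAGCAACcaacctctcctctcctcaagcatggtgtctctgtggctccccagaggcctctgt
H2-Eb1, chr17:34305728-34305832, + strand: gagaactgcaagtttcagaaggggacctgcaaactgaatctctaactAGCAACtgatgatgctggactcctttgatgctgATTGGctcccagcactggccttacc
H2-Ob, chr17:34238768-34238872, + strand: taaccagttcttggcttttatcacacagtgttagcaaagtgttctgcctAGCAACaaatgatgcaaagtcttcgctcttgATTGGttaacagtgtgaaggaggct
H2-DMb1, chr17:34153050-34153154, + strand: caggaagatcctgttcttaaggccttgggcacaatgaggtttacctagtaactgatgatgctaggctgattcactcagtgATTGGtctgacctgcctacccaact
H2-Oa, chr17:34092256-34092360, + strand: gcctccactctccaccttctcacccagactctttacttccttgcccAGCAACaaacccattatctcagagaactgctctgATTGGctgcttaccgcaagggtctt
H2-Aa, chr17:34287847-34287951, - strand: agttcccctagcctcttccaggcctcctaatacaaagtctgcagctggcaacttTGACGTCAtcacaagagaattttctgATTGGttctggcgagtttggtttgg

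The data were 1 list of peaks per library, and with no read counts in use the depth behind them is unknown. The Syn lists held 71925 to 76438 peaks on chromosomes 1 to 19 and X, and the Allo lists 62977 to 88861. The lowest expected pileup, solved from each peak's fold and p-value, was 4.65 to 5.34 in Syn and 3.05 to 4.46 in Allo, and the median pileup at summits was 44 to 46 in Syn and 38 to 41 in Allo. Allo 3 and Allo 4, the longest lists, had the lowest expected pileups, and the peak names in these lists follow a scheme that the remaining 5 lists do not use. Genes of the intestinal stem cell list, Lgr5, Olfm4 and Ascl2 among them, all had peaks in both groups, as had all 10 genes of the epithelial list, which holds Epcam and Cdh1. Ranks below are percentiles of the authors' −log10 q within a library, where 100 is the strongest peak, so they do not compare raw heights between libraries.

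More peaks lay at the class II genes in every Allo library than in any Syn library. The Syn libraries held 37, 39 and 41 such peaks, and Allo 1 to 4 held 44, 48, 55 and 53. Per 10000 peaks this was 5.27 ± 0.11 in Syn (SD, n = 3) and 6.49 ± 0.35 in Allo (SD, n = 4), a ratio of 1.23. Longer lists also held more class II regions (Pearson r = 0.754 over the 7 libraries, a description of libraries that also differ in recipient type). Allo 1 had the shortest list of all. With all lists reduced to the 62977 best peaks the difference fell from 1.23 to 0.873 per 10000, and it was 0.879 when summits had to lie in gene bodies. A more open locus in each cell and a larger share of cells with an open locus cannot be told apart in such pools.

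Of the 59 regions, 4 had peaks throughout the Allo group and nowhere in Syn, a pattern called Allo-only, and 0 had the reverse, Syn-only, pattern. The background over all 103809 regions was 1.14% Allo-only and 1.01% Syn-only. A further 33 regions had peaks in all 7 libraries. In 10 of these each Allo rank was above each Syn rank, in 0 it was below, and in 23 the ranks overlapped, against a background of 8.06% above and 6.58% below over 50324 such regions. Since the contrast served to choose the genes, nothing is read from these counts. The median difference in rank, Allo minus Syn, was 4.11 percentile points over the 33 regions and 0.437 over all regions with peaks in all libraries. Of the remaining 22 regions, 10 were seen in Allo 3 or Allo 4 alone, 4 in other sets of Allo libraries alone, and 8 in both groups. By position, 28 regions had their median summit within a gene body, 16 before its lower end and 15 after its upper end.

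**Figure D1:**
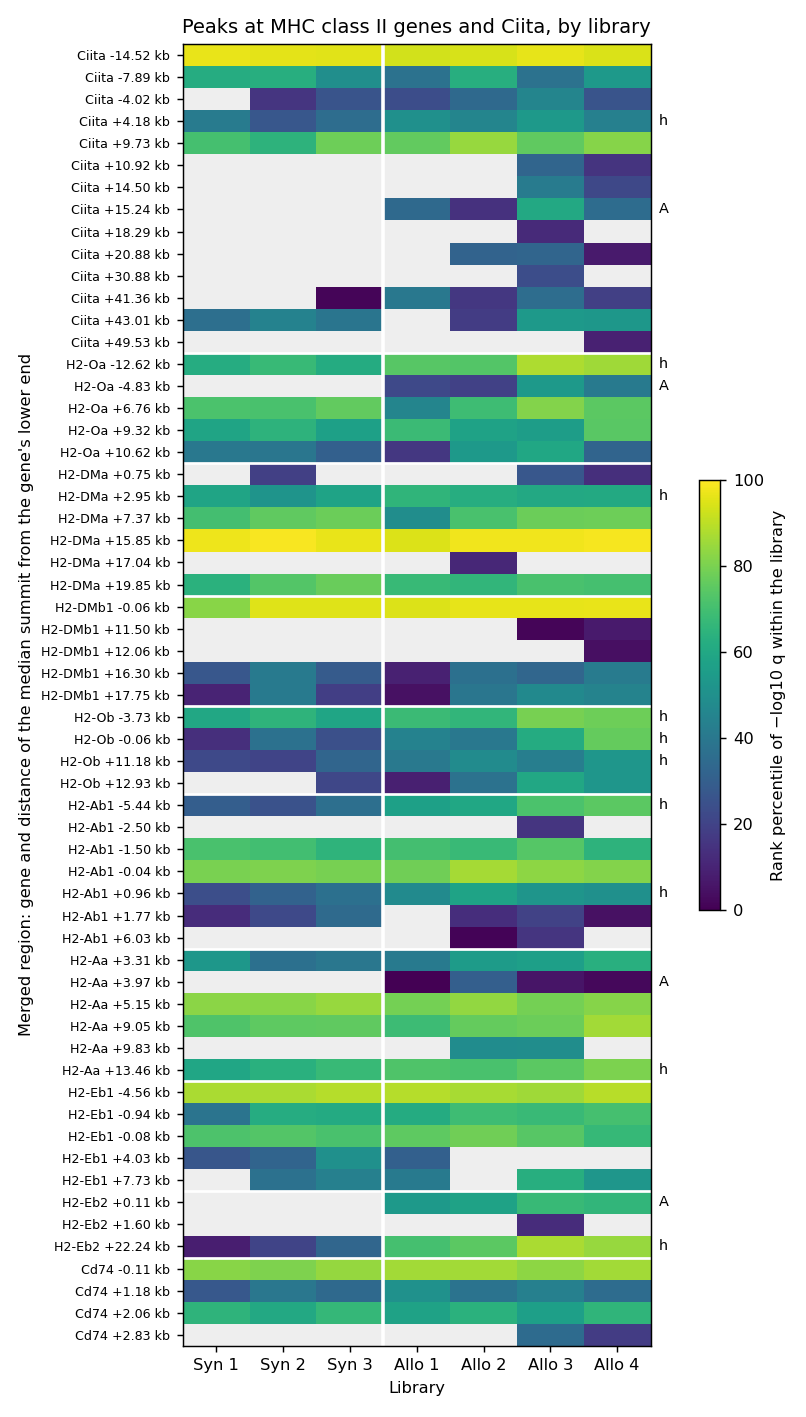
Rank percentile of −log10 q within the library (colour, 0 to 100) for each of the 59 regions (rows, by gene and distance of the median summit from the gene's lower coordinate in kb) in the 7 libraries (columns); grey cells have no peak. A marks the 4 Allo-only regions and h the 10 regions with every Allo rank above every Syn rank, and the groups overlap in 23 other rows that are filled in all 7 libraries.

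By gene, Ciita, H2-Aa, H2-Eb2 and H2-Oa had more peaks in each Allo than in each Syn library, and the counts of the other 6 genes overlapped. The background was 2.34% of 17234 genes with any peak, and 1.3% had fewer in each Allo library. Ciita had the largest difference in number. Peaks of H2-Aa numbered 4 throughout Syn, against 5, 6, 6 and 5 in Allo 1 to 4, and those of H2-Oa numbered 4 throughout Syn and 5 throughout Allo. At H2-Eb2 all Syn libraries had 1 peak, and Allo had 2, 2, 3 and 2. For H2-Aa, H2-Eb2 and H2-Oa the groups were thus apart by as little as 1 peak, as they were for Ciita, at 7 in Syn 3 and 8 in Allo 1.

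**Figure D2:**
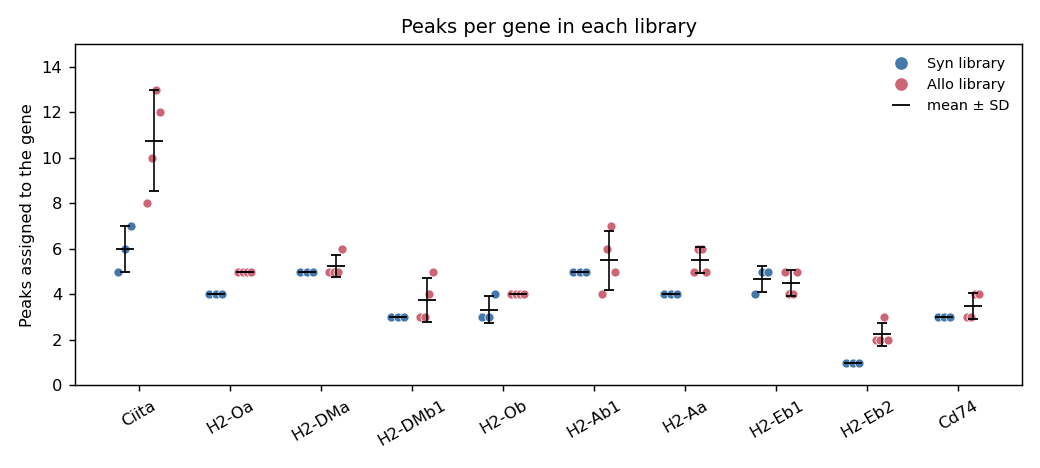
Number of peaks given to each of the 10 genes (y axis) in each Syn and Allo library (points), with the mean ± SD of each group (n = 3 Syn and 4 Allo). Ciita spans 5 to 7 peaks in Syn and 8 to 13 in Allo, and the groups overlap for H2-Ab1, H2-Eb1, Cd74, H2-DMa, H2-DMb1 and H2-Ob.

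Ciita (chromosome 16, 10480014 to 10531064, mm10) is the switch of the system, since its protein sets how much class II is made. It had 5, 6 and 7 peaks in Syn 1 to 3 and 8, 10, 13 and 12 in Allo 1 to 4, a mean of 6 ± 1 (SD, n = 3) against 10.75 ± 2.22 (SD, n = 4). These peaks fell in 14 regions, 11 of them within the gene body. The strongest region lay before the gene (10464899 to 10466034), with ranks of 96.6, 95.9 and 95.4 in Syn and 93.0, 93.8, 96.4 and 94.4 in Allo, and did not separate the groups. No peak covered either end of the gene in any library, but no Ciita starts were held, so the ends need not stand for its promoters. The strongest region within the body lay 9732 bp from the lower end (10489269 to 10490608). Its ranks overlapped, at 70.4, 64.8 and 78.0 in Syn and 76.1, 84.5, 75.6 and 81.7 in Allo. Ranked among regions open in all libraries, its summit and expected pileups were higher in each Allo library, and its fold overlapped.

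The Allo-only region of Ciita was intragenic (10495096 to 10495427, 15241 bp from the lower end). Its ranks in Allo 1 to 4 were 34.1, 14.4, 60.2 and 35.4, with summit pileups of 36, 28, 67 and 38. With lists shortened to the same length the peak was left in 3 Allo libraries, so the region was no longer Allo-only. A region 4185 bp into the body (10483221 to 10484578) was open in all libraries, at ranks of 41.6, 27.0 and 35.7 in Syn and 50.3, 45.3, 53.7 and 43.7 in Allo, so that the highest Syn value lay close to the lowest Allo value. When ranks were taken among the regions shared by all libraries, the groups overlapped there. Another region within the body (10521211 to 10521557) had peaks in all Allo libraries, at ranks of 40.1, 16.3, 35.8 and 18.8, and in Syn 3 alone of the Syn libraries, at 1.3. A further 5 Ciita regions were seen in Allo 3 or Allo 4 alone, so part of the higher count rests on these libraries, but Allo 1 and Allo 2 also exceeded each Syn library. However, the region 4185 bp into the body held an additional, weaker peak in Allo 1 and Allo 2, at ranks of 3.2 and 11.9. Without that peak Allo 1 would not exceed Syn 3.

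**Figure D3:**
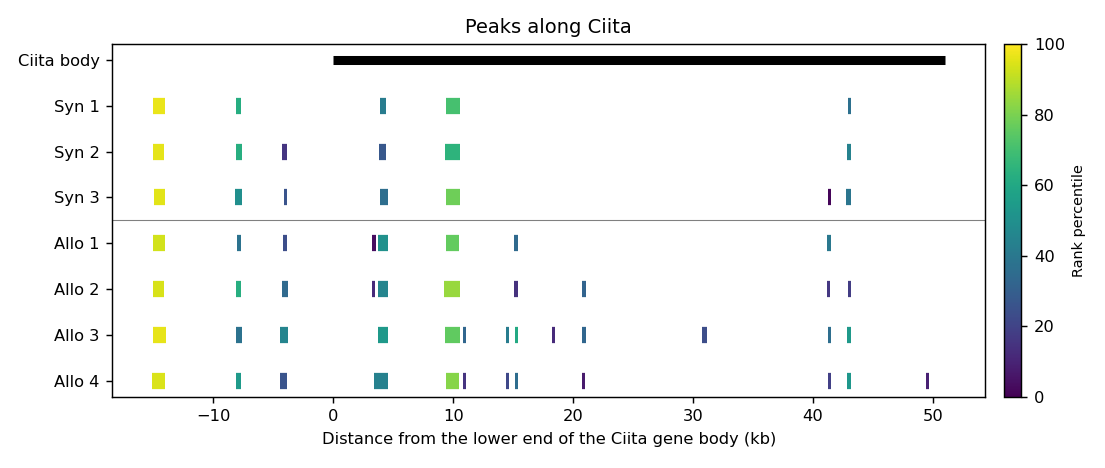
Peaks at Ciita in each library (rows), placed by distance from the gene's lower end in kb (x axis), with the gene body as a black bar and colour for the rank percentile. The region about 15 kb into the body has a peak in each of the 4 Allo libraries and none in the 3 Syn libraries, and the strongest region, before the gene, is present in all 7.

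The class II chain genes lie together on chromosome 17. H2-Aa (34282744 to 34287823) and H2-Ab1 (34263227 to 34269418) encode the alpha and beta chains of I-A, the class II molecule that B6 mice display, and H2-Eb1 encodes the beta chain of I-E. The starts of H2-Aa and H2-Eb1 and the lower end of H2-Ab1 were covered by a peak in all 7 libraries, with ranks that overlapped. At the H2-Aa start they were 82.6, 82.1 and 84.8 in Syn and 79.2, 83.9, 79.3 and 81.8 in Allo. At the lower end of H2-Ab1 they were 79.7, 80.7 and 79.4 in Syn and 78.2, 86.6, 83.0 and 81.5 in Allo. At the H2-Eb1 start they were 72.0, 73.1 and 71.2 in Syn and 75.3, 78.2, 73.8 and 66.8 in Allo. These 3 places were thus called open in both recipient types, and their ranks did not set the types apart. The best ranked region of H2-Eb1 lay 4562 bp before its start (34300735 to 34301591) and stood at 87.2 to 89.1 in Syn and 85.9 to 89.2 in Allo. H2-Ab1 had 5 peaks throughout Syn, against 4, 6, 7 and 5 in Allo, and H2-Eb1 had 4, 5 and 5 in Syn, against 5, 4, 4 and 5 in Allo.

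Away from the starts, 3 regions of H2-Ab1 and H2-Aa ranked higher in each Allo library. The largest difference was at 34257640 to 34258232, which lies 5443 bp before the lower end of H2-Ab1. Its ranks were 30.1, 25.4 and 36.6 in Syn and 56.9, 59.6, 71.5 and 74.7 in Allo, a mean of 30.7 ± 5.67 (SD, n = 3) against 65.7 ± 8.75 (SD, n = 4). The groups were wide apart there, with summit pileups of 35, 36 and 41 in Syn and 54, 62, 95 and 85 in Allo. In the body of H2-Ab1 (34264040 to 34264330) the ranks were 24.2, 31.5 and 36.8 in Syn and 47.9, 57.9, 52.2 and 50.2 in Allo. At 8376 bp before the start of H2-Aa, on its upstream side (34295778 to 34296596) they were 59.3, 63.6 and 67.4 in Syn and 72.6, 71.5, 74.9 and 80.1 in Allo. When peaks were ranked by the deposited fold in place of −log10 q, the mean difference turned to -3.54 points there, and it shrank from 35.0 to 17.8 points before H2-Ab1 and from 21.3 to 3.83 points in its body. By fold rank among the shared regions the groups overlapped in the body of H2-Ab1 and at the H2-Aa region, and stayed apart before H2-Ab1. An Allo-only region in the body of H2-Aa (34286554 to 34286880) was weak, with ranks of 0.1, 30.4, 5.6 and 2.0, and at a −log10 q of at least 5 it was left in 1 Allo library.

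H2-Eb2 is a beta chain gene of the E type that lies beside H2-Eb1, and its start was the only member start with an Allo-only peak. That region (chromosome 17, 34325322 to 34325792) holds the promoter shown above. Its ranks in Allo 1 to 4 were 53.9, 57.5, 67.3 and 65.7, the summit pileups were 33, 36, 41 and 37, and no Syn library had a peak there. The summits lay at -71 to -59 bp from the start at 34325675 and 29 to 41 bp from the first base of the Y box, between it and the start. The region was Allo-only also when lists were shortened to the same length, and when peaks needed a −log10 q of at least 5.

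The largest change of rank at any member was found past H2-Eb2, at 34347479 to 34348265. Ranks were 8.3, 20.6 and 33.1 in Syn and 70.5, 74.7, 87.2 and 84.5 in Allo, a mean of 20.7 ± 12.4 (SD, n = 3) against 79.2 ± 7.92 (SD, n = 4). Summit pileups were 19, 24 and 27 in Syn and 47, 57, 83 and 65 in Allo. The authors' folds were 3.37, 3.95 and 4.95 in Syn and 7.64, 8.06, 11.7 and 12.1 in Allo, so the groups were apart by each of these values. The region was given to H2-Eb2 as the nearest protein-coding gene, at 6337 bp from its end. The body of H2-Ea (34341952 to 34344645) lies between them, and the median summit was 3102 bp past the upper end of that pseudogene.

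Cd74 (chromosome 18, 60803849 to 60812652) encodes the invariant chain. All Syn libraries had 3 peaks there, against 3, 3, 4 and 4 in Allo, with 0 Allo-only regions. The peak at its lower end was strong in both groups, with ranks of 82.1, 80.5 and 84.2 in Syn and 86.2, 86.0, 82.9 and 86.1 in Allo. Allo 3 alone fell within the Syn range. Its intragenic regions also overlapped in rank, and 1 region within the body was seen in Allo 3 and Allo 4 alone.

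H2-DMa and H2-DMb1 encode the chains of DM, the peptide exchanger. H2-DMa had 5 peaks in every library but Allo 4, which had 6, and H2-DMb1 had 3 throughout Syn, against 3, 3, 4 and 5 in Allo. At the H2-DMb1 start (34152568 to 34153696) ranks were 82.1, 95.3 and 95.3 in Syn and 94.5, 96.3, 96.4 and 96.8 in Allo. Of the member starts and gene ends covered by a peak, this one ranked highest in every library but Syn 1. Its summits lay within 5 bp of the first base of the Y box in all 7 libraries. Syn 1 was the lowest, and Allo 1 lay below the other 2 Syn libraries, so the groups overlapped, but they did not when ranks were taken among the regions shared by all libraries. H2-DMb2, a close copy of H2-DMb1, had no peak in Syn, Allo 1 or Allo 2 and 1 each in Allo 3 and Allo 4, and reads that match both copies cannot be told apart. The region over the first start of H2-DMa (34120861 to 34122914) ranked 58.3, 51.8 and 58.1 in Syn and 65.4, 62.2, 60.5 and 60.6 in Allo. It also covers the upper end (34122814) of the body of Brd2, a chromatin reader gene that overlaps H2-DMa. The strand of Brd2, and so whether its own start lies there, was not examined. Signal of the 2 genes cannot be told apart in this region, and by fold rank the mean difference was -1.06. The summits of the peaks over the start also differed in place, since they lay at -1793 and -1494 bp from it in Syn 1 and Syn 2, at -167 bp in Syn 3 and at -187 to -96 bp in Allo. The peak over the start ranked 53.4 in Syn 3, below the 58.1 of the whole region. Among the shared regions, the ranks overlapped. The strongest H2-DMa region lay 15846 bp from its lower end (34135230 to 34136092) at ranks of 94.7 to 98.8 in all libraries, and no peak covered the second start.

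H2-Oa (34092379 is its start) and H2-Ob (start at 34238905) encode the chains of DO, the inhibitor of DM. The H2-Ob start (34238536 to 34239097) had peaks in all libraries, with ranks that did not overlap. Its ranks were 13.4, 37.4 and 24.3 in Syn and 44.5, 39.9, 61.4 and 76.2 in Allo, with pileups of 21, 30 and 24 against 32, 29, 46 and 53. The ranks of Syn 2 and Allo 2 were close to each other, and the pileup of Allo 2 was below that of Syn 2. Summits lay 1 to 32 bp from the first base of the Y box. Regions 3732 bp before the start (34234928 to 34235482) and 4180 bp past the end of H2-Ob (34249735 to 34250238) also ranked higher in each Allo library. They stood at 58.7 to 65.2 in Syn and 66.0 to 79.4 in Allo before the start, and at 20.6 to 32.5 and 40.5 to 52.7 past the end. Among the shared regions, the ranks before the start overlapped, at 49.4 in Syn 2 and 49.2 in Allo 2, and by fold rank the groups overlapped at all 3 shared H2-Ob regions.

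The start of H2-Oa, whose promoter holds X and Y cores at 34 bases, had no peak in any library. Its Allo-only region lay 4834 bp before the start (34087372 to 34087835), at ranks of 22.1, 19.2, 53.6 and 40.8 in Allo 1 to 4. A region 12622 bp before the start (34079455 to 34080023) ranked 61.9, 67.5 and 61.7 in Syn and 73.9, 73.1, 87.8 and 85.8 in Allo. The best ranked H2-Oa region was in that place in Allo, and past the gene (34098728 to 34099417) in Syn at 71.8, 71.5 and 76.1.

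**Figure D4:**
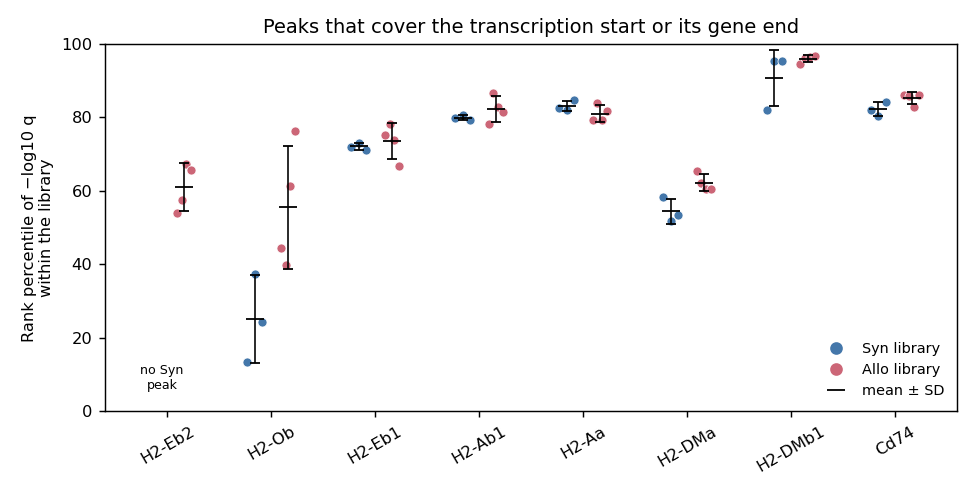
Rank percentile of −log10 q (y axis) of the peak that covers a transcription start, or for H2-Ab1 and Cd74 the lower gene end, in each Syn and Allo library (points) with mean ± SD (n = 3 Syn and 4 Allo). H2-Eb2 has no Syn peak, and the groups are apart at H2-Ob and overlap at 5 genes. At H2-DMa they are apart, but the Syn 1 and Syn 2 summits lie at -1793 and -1494 bp from the start. The H2-DMa region also covers the upper end of the Brd2 body.

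The deposited −log10 q mixes the pileup at the summit with the pileup expected from its surroundings, so both were solved from the authors' fold and −log10 p and ranked among the 50324 regions open in all libraries, a comparison chosen after seeing the data. By summit pileup, 23 of the 33 class II regions ranked higher in each Allo library and 0 lower, against 10.6% and 11.0% of all regions. By local expected pileup, 27 ranked higher and 0 lower, against 13.6% and 14.1%. By fold, the ratio of the 2 pileups after 1 is added to each, 3 ranked higher and 5 lower, against 5.78% and 6.07%. By −log10 q, 8 ranked higher and 0 lower, against 8.41% and 8.86%, and 7 of these were among the 10 counted in the whole lists. As before, these shares describe the contrast that chose the genes.

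By gene, the local expected pileup ranked higher in each Allo library at 4 of 4 regions of H2-Aa, H2-Ab1 and H2-Oa, 3 of 3 of H2-Eb1 and Cd74, 3 of 4 of Ciita and H2-DMa, and 1 of 1 of H2-Eb2, but at 1 of 3 of H2-Ob and H2-DMb1. The summit pileup ranked higher in each Allo library at all shared regions of H2-Aa, H2-Ab1, H2-Eb1, H2-Eb2, Cd74 and H2-Ob, 2 of 4 of Ciita, 1 of 4 of H2-DMa and H2-Oa, and 1 of 3 of H2-DMb1. At the lower end of Cd74 the expected pileup was 3.54, 3.63 and 4.06 times the library's lowest value in Syn and 5.03, 5.52, 10.8 and 9.50 times in Allo. At the H2-Aa start it was 2.03, 2.27 and 2.40 times in Syn and 3.09, 3.74, 6.23 and 5.85 times in Allo. Allo 3 and Allo 4 stood highest in both places, and Allo 1 and Allo 2 also lay above the Syn libraries. The lowest value itself was smaller in Allo 3 and Allo 4, at 3.28 and 3.05, which raises such ratios. At an H2-DMa region whose expected pileup ranks overlapped (34126800 to 34127838), they were 5.93 and 5.33 there, against 3.88 to 4.73 in Syn. By rank, the lower end of Cd74 stood at 87.5 to 87.9 in Syn and 97.5 to 98.4 in Allo. The H2-Aa start stood at 59.8 to 65.0 and 84.8 to 88.9. The fold rank of the H2-Aa start peak was accordingly lower in each Allo library, at 55.0, 48.8, 24.8 and 31.0 against 74.7, 67.7 and 72.6 in Syn.

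Neighbouring regions share the surroundings from which the expected pileup is taken, so regions of a locus are not independent. The 3 loci were on different chromosomes, and the count was 3 of 4 regions on chromosome 16, 21 of 26 on chromosome 17 and 3 of 3 on chromosome 18. On chromosome 17 as a whole it was 392 of 2328 regions (16.8%). Between the outermost class II regions, 6 of 7 regions of other genes also ranked higher in Allo. Without Allo 3 and 4, the count was 27 above and 0 below by expected pileup (background 21.2% and 20.4%) and 23 above and 1 below by summit pileup (17.8% and 17.9%). Without Allo 1 and 2 it was 31 and 1 (29.1% and 30.2%) by expected pileup and 27 and 1 (25.8% and 24.5%) by summit pileup.

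**Figure D5:**
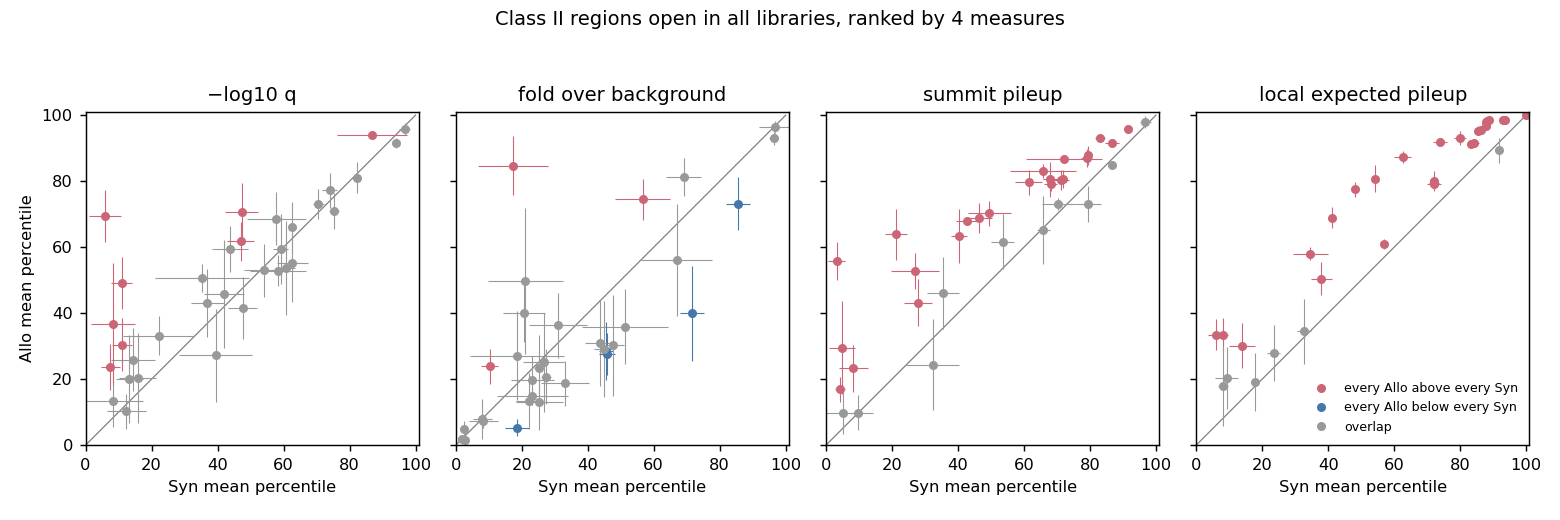
Mean percentile in Syn (x axis) and Allo (y axis) of the 33 class II regions open in all libraries, ranked among 50324 such regions by −log10 q, fold over background, summit pileup and local expected pileup; bars are SD (n = 3 Syn and 4 Allo) and the line marks equality. Red points, 8, 3, 23 and 27 in the 4 panels, have every Allo value above every Syn value, and blue points, 5 by fold and 0 in the other panels, have every Allo value below.

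The rest of the pathway was set beside the members with lists of genes whose peaks per 10000 peaks were compared over the libraries by a two-sided exact permutation test (35 relabellings, smallest p 0.0286) with Benjamini-Hochberg adjustment over 7 lists, and 0 of 7 passed at 0.05, with 0 unadjusted p under 0.05. A single list at the smallest p would have had an adjusted p of 0.2 in this design, so a list could not pass alone. The lists were also chosen with earlier results of these data known. The p-values of this and the next paragraphs are therefore given as a description, and nothing is concluded from 0 lists passing. The 20 transcription regulators of class II, among them the RFX and NF-Y subunits, Creb1 and the interferon-gamma receptor genes, had 17.2 ± 0.867 in Syn (SD, n = 3) and 18.0 ± 0.976 in Allo (SD, n = 4; exact permutation p = 0.229, adjusted p = 0.533). Of their 179 regions 6 were Allo-only and 1 was Syn-only, where the background is 1.14% and 1.01%. Irf1, an interferon-induced activator of Ciita, had 3 Allo-only regions, with 11, 9 and 8 peaks in Syn and 10, 12, 16 and 14 in Allo. Nfyc, a subunit of NF-Y, Creb1 and Socs1, an inhibitor of cytokine signalling, had 1 each, and Irf2, a relative of Irf1, had the Syn-only region. Of the 20 regulator genes, 0 had more peaks in each Allo than in each Syn library, against 2.34% of the 17234 genes with any peak. Nothing is read from this count.

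The 17 genes of antigen processing and costimulation had 8.64 ± 0.241 in Syn (SD, n = 3) and 9.13 ± 0.490 in Allo (SD, n = 4; exact permutation p = 0.2, adjusted p = 0.533). Marchf1, a ubiquitin ligase that removes class II from the surface, had no peak in Syn and 1, 1, 4 and 2 in Allo, with 1 Allo-only region, and Marchf8 and Cd274, the gene of PD-L1, had 1 each. These were 3 of the list's 86 regions, where the background is 1.14%. The 18 class I presentation genes had 4.50 ± 0.201 in Syn (SD, n = 3) and 4.66 ± 0.474 in Allo (SD, n = 4; exact permutation p = 0.629, adjusted p = 0.88). Nlrc5, the class I counterpart of Ciita, had 5 peaks throughout Syn, against 6, 7, 7 and 7 in Allo. It held the 1 Allo-only region among the 40 of its list (background 1.14%). By local expected pileup, 22 of 27 class I regions ranked higher in each Allo library and 0 lower, 16 of 18 on chromosome 17 and 6 of 9 elsewhere. The class II regulators had 23 above and 20 below among 94 regions, and the stem cell genes 4 above and 34 below among 74. For these lists the background over all regions open in all libraries was 13.6% above and 14.1% below.

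Markers of leukocytes, some of which make class II all the time, were counted in the sorted libraries. The 22 markers of antigen-presenting leukocytes had 6.26 to 7.59 peaks per 10000 in Syn and 7.15 to 7.76 in Allo (exact permutation p = 0.371, adjusted p = 0.65; n = 3 and 4). They held 0 Allo-only regions, and Cd79a and Lyz2 had no peak in any library. Ptprc, which encodes CD45, had 2 peaks throughout Syn, against 1, 2, 5 and 3 in Allo, and Ms4a1 had 1 peak, in Allo 2. By local expected pileup, 6 of 38 leukocyte regions (15.8%) ranked higher in each Allo library and 3 (7.89%) lower. The background was 13.6% and 14.1%, so the share above was near that of all regions. The T cell markers had 0.916 to 1.11 in Syn and 1.27 to 1.59 in Allo (exact permutation p = 0.0571, adjusted p = 0.4; n = 3 and 4), so that 4 of 4 Allo values exceeded those of Syn. With peaks of a −log10 q of at least 5 the exact permutation p was 0.0286, the smallest possible, and the adjusted p was 0.2. Of the 11 T cell genes that matched the gene table, 6 had no peak in any library, Cd3d, Cd3g, Cd4 and Cd8a among them, and Cd28 had 1 Allo-only region. The part of such cells in the class II values was not tested. Stem cell genes had 13.6 ± 0.487 in Syn (SD, n = 3) and 13.5 ± 0.358 in Allo (SD, n = 4; exact permutation p = 0.771, adjusted p = 0.9). Epithelial genes had 11.2 ± 0.462 in Syn (SD, n = 3) and 11.3 ± 1.14 in Allo (SD, n = 4; exact permutation p = 0.943, adjusted p = 0.943). In these lists Sox9 had 2 Allo-only regions, of 136 at stem cell genes. Epcam and Cdh1 had 1 each, of 96 at epithelial genes, and the background was 1.14% of all regions. Sox9 and Rnf43, 2 of the 10 stem cell genes, had more peaks in each Allo than in each Syn library, against 2.34% of genes with any peak. Of the 10 epithelial genes 0 did.

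Over the 7 libraries the class II genes held 36, 39 and 40 open regions in Syn, against 42, 46, 55 and 51 in Allo. Among 10697 genes with at least 3 regions, the counts most like it were those of Nhej1, Emx2 and Kcnip3 (Pearson r = 0.990), Plcb4 (r = 0.988) and Hk2 (r = 0.987). With 7 libraries that share list length and recipient type, many genes reach high values, and these are given as a description without a test.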

How the data were processed

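Omni-ATAC-seq libraries of sorted Lgr5-GFP cells (3 Syn, 4 Allo) were grouped by their titles. Per the submitters' processing notes, Trim Galore, Bowtie2, MACS2, MACS3 and mm10 were used, and roles and versions are not given in the sources used here, nor are the peak threshold and read shifting, which bear on which weak peaks are listed and on widths. The authors deposited 1 peak list per library, called per library. Its values are the authors' score, fold over background, −log10 p-value, −log10 q-value and summit, which belong to single peaks and served for ranking and filtering inside each list. The lowest deposited −log10 q was 1.30. Read depth is unknown.

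Peaks on chromosomes 1 to 19 and X were given to genes of the RefSeq table (GRCm38.p6), and merged at 1 bp of overlap. A pileup and an expected pileup were solved from fold and −log10 p under a Poisson model, within 0.001 for 100% of peaks. Non-member lists were tested by exact permutation, which measures the spread between independent pools. Of 119 listed genes 118 matched. Replicate numbers did not pair the libraries (correlations of -0.0202, 0.000406 and -0.0287). The members and lists were chosen with earlier results of these data known. Named items are all members, regions open in 1 group or with ranks apart, the best ranked regions, those at starts or gene ends, list genes with regions open in 1 group (at most 6 per list), and the 5 genes of most like pattern. Other regions, Lgr5, Olfm4, Ascl2 and marker genes without such regions were named after their values were seen, and some list genes are not reported here. Merging, ranking and solving were tested on simulated data, in which the expected pileups to be solved were lower than those of many class II regions. Python 3.11.15, numpy 2.4.6, pandas 2.3.3, scipy 1.17.1 and matplotlib 3.10.9 were used.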

Additional observations from a re-analysis of the deposited data

Results flagged for a closer look

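Each group of 4 Allo values was screened for a library that stood apart from the rest, and 3 of 58 had one. Chance alone gives this in about 1 of 20 groups of continuous values, a rate that does not hold for small counts with ties. H2-Eb2 had 3 peaks in Allo 3 and 2 in each other Allo library. H2-DMa had 6 peaks in Allo 4 and 5 in the others. The peak at the lower end of Cd74 had a rank percentile of 82.9 in Allo 3, below the 86.0 to 86.2 of the other Allo libraries. In the 2 counts a difference of 1 peak is enough to set a library apart.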

How the results depend on the processing

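The higher class II peak density in Allo kept its direction in all settings run. The difference of 1.23 per 10000 was 0.873 with lists of the shortest length, 0.879 in gene bodies, 1.07 without Allo 1 and 2, 1.38 without Allo 3 and 4, and 1.06 to 1.33 when 1 library was left out. The block by replicate number, which does not pair the libraries, gave 1.23, and for the other lists its exact sign-flip p cannot go below 0.25. Allo-only regions numbered 4 to 6 with 1 library left out (background 1.33% to 2.37%), 9 without Allo 1 and 2 (6.9%), and 2 with lists of the shortest length (1.16%). Syn-only regions numbered 0 to 1 (1.05% to 1.98%), 1 (2.21%) and 1 (1.43%) in these settings. Regions ranked higher in each Allo library, 10 in the whole lists, numbered 10 to 15 with 1 library left out (background 8.81% to 16.1%, the highest without Allo 1). They numbered 6 of 23 within 5 kb and 3 of 10 in gene bodies (8.06% in both), and 18 of 35 without Allo 1 and 2 (33.8%). By fold in the whole lists there were 4 (5.57%). Ranked among the regions open in all libraries, they numbered 3 by fold (5.78%), 23 by summit pileup (10.6%) and 27 by expected pileup (13.6%). Regions ranked lower numbered 0 to 1 with 1 library left out (7.5% to 11.6%), 1 without Allo 1 and 2 (13.8%) and 2 without Allo 3 and 4 (20.1%). By fold they numbered 9 of 33 in the whole lists (5.95%) and 5 among the regions open in all libraries (6.07%). Fewer peaks enter under the shorter lists and narrower assignments, and the cause of the other shifts was not tested. Fold turned the differences of the H2-DMa start region to -1.06 and of the H2-Aa region at 34295778 to -3.54. Among lists that missed the threshold, the epithelial difference of 0.0839 was -0.277 at a −log10 q of at least 5 and -0.639 without Allo 1 and 2, and -0.439 to 0.472 with 1 library left out. The stem cell difference of -0.0888 was 0.101 without Allo 1 and 2 and -0.353 to 0.127 with 1 library left out, and the class I difference of 0.157 was -0.210 without Allo 1 and 2. Without read counts, absence of a peak does not show closed chromatin, and whether a weak peak, such as that in the body of H2-Aa, is listed depends on depth and on the peak threshold.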
